A study of Arabidopsis thaliana with 6 samples.

Results

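RNA polymerase III and its factors were followed here through 10 Arabidopsis thaliana loci, which cover subunits of the enzyme, subunits shared with polymerase I, the initiation factor TFIIIA and BRF-type factors. A locus counted as measured where the platform annotation listed a probe set with that gene alone. This held for 6 of the 10, with 1 probe set each, out of 22746 probe sets tested and 13333 genes with such a probe set in the whole series. The 6 were NRPC1 (AT5G60040), NRPC2 (AT5G45140), AT2G45100, AT3G09360, AT5G09380 and AT5G49530. TFIIIA (AT1G72050), AT4G25180, RPAC43 (AT1G60620) and ATRPAC42 (AT1G60850) had no such probe set in the annotation used and were not analysed here.

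The study used Affymetrix ATH1 arrays on whole seedlings of the accession Wassilevskija, 3 arrays of the atr8 mutant and 3 of the wild type, described as biological replicates. All seedlings, the wild type included, were 10 days old and had gone through a low-oxygen stress, 6 h in water purged of air, followed by 22 h of recovery on agar. The labels give neither the kind of atr8 allele nor whether the mutant arrays came from 1 line or several. No unstressed seedlings were analysed here, so the values below are differences between genotypes after stress and recovery, not responses to the stress.

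RNA polymerase III makes short, abundant RNAs that are not translated, among them the transfer RNAs and the 5S ribosomal RNA. On a 5S gene TFIIIA binds inside the gene, TFIIIC joins it, and TFIIIB, a complex of the TATA-binding protein, BRF and BDP1, then brings in the polymerase. The messenger RNAs measured here, which encode this machinery, are themselves made by polymerase II. AtR8, the RNA whose mutant was studied, is a long non-coding RNA made by polymerase III in Arabidopsis. The subunit genes among the listed loci thus encode parts of the enzyme that would transcribe it.

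Across the array, limma called 209 of 22746 probe sets (Benjamini-Hochberg adjusted p under 0.05). In the mutant 162 of these were higher, and 47 were lower. Mutant replicates 2 and 3 stood apart in their control probe sets. Actin probe sets at the 3′ end read 2.13, 28.9 and 19.6 times those at the 5′ end in mutant replicates 1, 2 and 3, and 2.17 to 2.66 times on wild-type arrays. For GAPDH the ratio was 0.996, 1.75 and 1.70 in the mutant, and 0.794 to 0.844 in the wild type. Each named gene below is therefore also given for mutant replicate 1 alone, as its log2 difference from the wild-type mean. Markers of leaf, root and pollen were read, without detection calls. Every measured leaf marker read 557 or more on every array. The lowest root marker value, 77.3 in mutant replicate 3, was below the highest pollen marker value, 139 in wild-type replicate 2. Root and pollen markers thus overlapped. The 4 of 9 listed leaf markers that were measured summed to 35737 to 43234 in the mutant, against 70068 to 71769 in the wild type. The 2 of 9 root markers summed to 419 to 768 in the mutant, against 854 to 925 in the wild type. The 2 of 4 pollen markers, expected to be absent, summed to 13.8 to 58.6 in the mutant, against 9.49 to 226 in the wild type, and no marker was at 0. Fewer cells of a type and less RNA per cell cannot be told apart in such samples, and the part of these shifts in the results below was not tested.

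Of the 6 measured polymerase III genes, limma called 0, where it called 0.919% of all probe sets, 0.712% as higher and 0.207% as lower. AT5G49530 had the smallest p. Its 3 mutant arrays lay above its 3 wild-type arrays, 1.70-fold on average. The other 5 genes had overlapping groups and fold changes between 0.929 and 1.26 on the same scale. The smallest difference that limma called on these arrays was 1.23 on the log2 scale, larger than the estimate of any of the 6, so 0 calls among them does not show that their levels were alike. At an unadjusted p under 0.05 there was 1 of the 6 (16.7%), where 14.0% of all probe sets stood. The groups did not overlap for 1 of the 6 (16.7%), where they did not for 22.1% of all probe sets, 11.2% with the mutant arrays above and 11.0% with them below. Each of these shares rests on the same gene, and both are near those of the whole array. The median log2 difference was 0.14 for the 6, where it was -0.01 for all probe sets, with 4 estimates above 0 and 2 below.

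NRPC1 encodes the largest subunit of polymerase III, which carries the catalytic centre. Its intensity was 292, 182 and 272 in mutant replicates 1, 2 and 3, against 209, 213 and 153 in wild-type replicates 1, 2 and 3. Mutant replicates 1 and 3 lay above every wild-type array, and mutant replicate 2 lay inside the wild-type range, so the groups overlapped. The mean was 249 ± 58.8 in the mutant and 192 ± 33.8 in the wild type (SD, n = 3 each). The log2 difference was 0.34 ± 0.26 (SE), with a 95% interval of -0.30 to 0.98 and an adjusted p of 0.607 by limma. For mutant replicate 1 alone it was 0.58.

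NRPC2 encodes the second-largest subunit, which forms the active site together with NRPC1. The intensities were 366, 365 and 461 in the mutant arrays, against 266, 409 and 472 in the wild-type arrays. All 3 mutant values fell inside the wild-type range. The means were 397 ± 54.9 in the mutant and 382 ± 106 in the wild type (SD, n = 3 each), and the log2 difference was 0.08 ± 0.27 (SE, adjusted p = 0.919 by limma). Its 95% interval ran from -0.58 to 0.75, so a 2-fold change in either direction lay outside it. Both catalytic subunits thus had estimates above 0 with intervals that included 0. The estimate for NRPC2 from mutant replicate 1 alone was -0.02.

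AT5G09380 belongs to the RPC4 family of subunits that help the enzyme to open DNA and to terminate, a role known from yeast. It gave 370, 274 and 301 in the mutant arrays and 308, 323 and 327 in the wild-type arrays. The wild-type arrays differed little from each other, while the mutant arrays lay on both sides of them. The means were 315 ± 49.6 in the mutant and 319 ± 10.4 in the wild type (SD, n = 3 each), with a log2 difference of -0.03 ± 0.20 (SE, adjusted p = 0.964 by limma). Its 95% interval of -0.51 to 0.46 was the narrowest of the 6. The other RPC4-type locus, AT4G25180, was not analysed here.

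AT5G49530 encodes a SIN-like protein of the RPC5 family, in yeast and animals the partner of the RPC4 subunit. Its intensity was 480, 780 and 740 in mutant replicates 1, 2 and 3. The wild-type arrays gave 383, 391 and 356. Every mutant array lay above every wild-type array, with mutant replicate 1 the closest to them. The means were 666.5 ± 163 in the mutant and 377 ± 18.5 in the wild type (SD, n = 3 each). The log2 difference was 0.77 ± 0.25 (SE), with a 95% interval of 0.16 to 1.37, which as a fold of intensity + 16 is 1.12 to 2.59. The limma p was 0.0208 unadjusted and 0.261 adjusted over all probe sets, so it did not pass. By size of its test statistic it stood above 92.0% of all probe sets. Mutant replicates 2 and 3, the arrays with high 3′ to 5′ ratios, averaged a log2 difference of 0.98 from the wild type, and mutant replicate 1 had one of 0.34. With a prior variance that followed intensity and was fitted robustly, the limma adjusted p was 0.0428. In that setting limma called 1459 probe sets in all. It was the only one of 16 alternatives in which any of the 6 genes was called. With the replicate block, or with any 1 array but mutant replicate 1 left out, limma called 0 of all probe sets. No gene could be called in those settings.

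**Figure D1:**
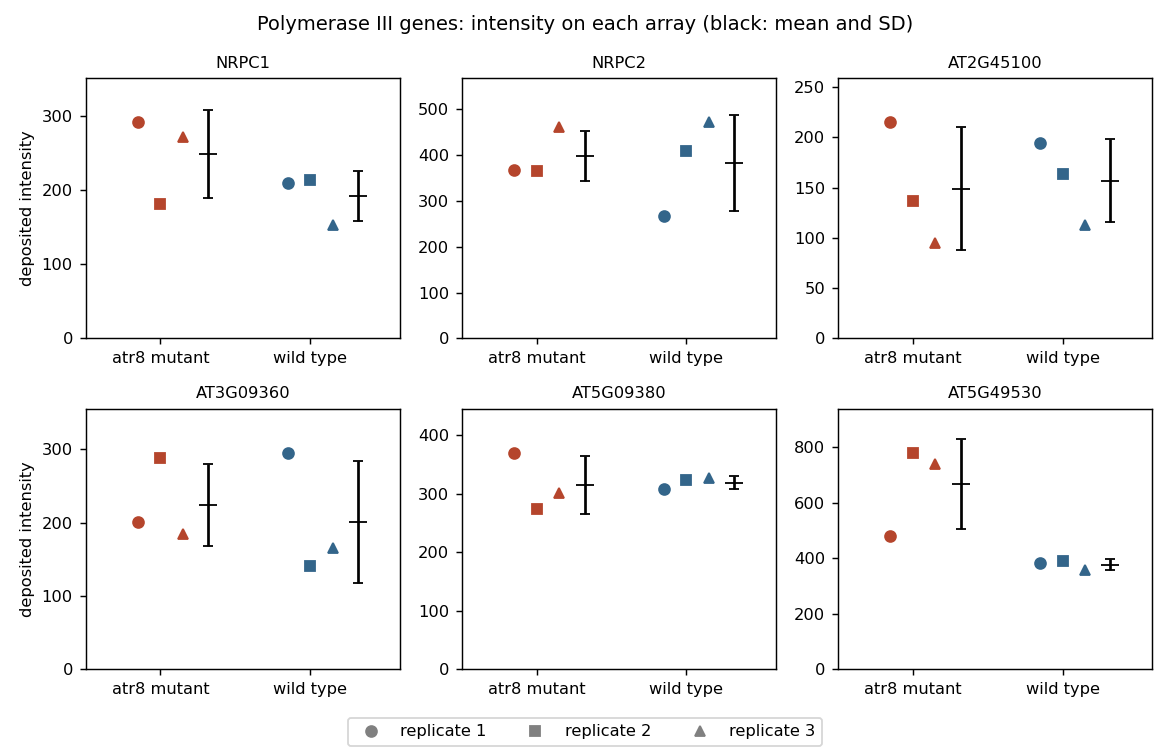
Deposited intensity of the 6 measured polymerase III genes, a panel each, on the 3 atr8 mutant arrays (red) and the 3 wild-type arrays (blue); marker shapes give the replicate number, which pairs no samples, and black bars give the mean and SD. AT5G49530 is the gene whose groups do not overlap, with 480 to 780 in the mutant and 356 to 391 in the wild type.

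AT2G45100 and AT3G09360 encode BRF-type proteins, relatives of TFIIB that recruit polymerase III as part of TFIIIB. AT2G45100 gave 216, 137 and 94.8 in the mutant arrays and 195, 163 and 113 in the wild-type arrays. The mutant arrays held both the highest and the lowest value. The means were 149 ± 61.4 in the mutant and 157 ± 41.0 in the wild type (SD, n = 3 each). The log2 difference was -0.11 ± 0.35 (SE, adjusted p = 0.918 by limma), and its interval of -0.96 to 0.74 was the widest of the 6. It changed sign in mutant replicate 1 alone, where it was 0.45.

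For AT3G09360 the mutant arrays read 201, 288 and 184, and the wild-type arrays 295, 140 and 166. The wild-type range enclosed all 3 mutant values. The means were 224 ± 55.7 in the mutant and 200.4 ± 83.3 in the wild type (SD, n = 3 each), with a log2 difference of 0.19 ± 0.34 (SE, adjusted p = 0.83 by limma). The pair of BRF genes thus had estimates of opposite sign, each smaller than its standard error. AT3G09360 stood at 0.07 in mutant replicate 1 alone.

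**Figure D2:**
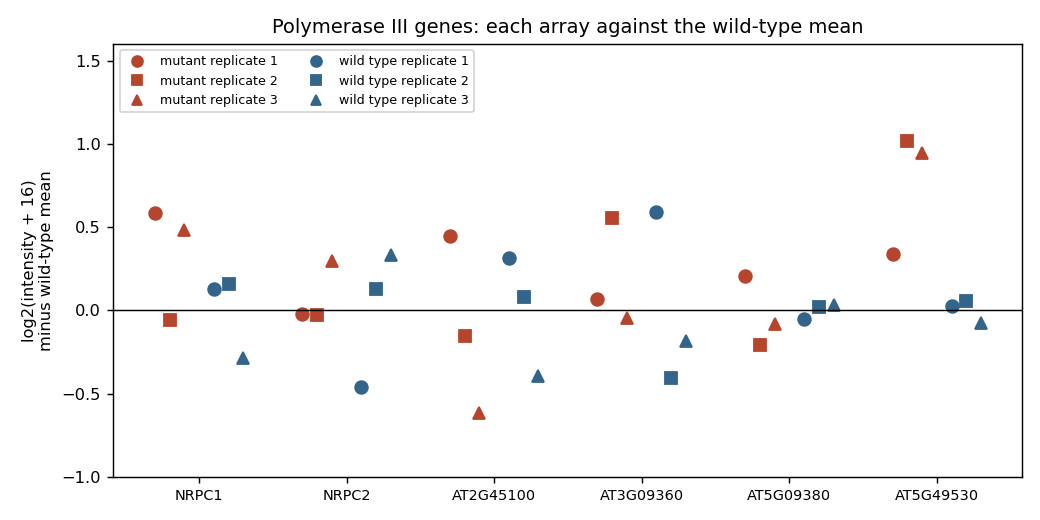
Each array's log2(intensity + 16) minus the wild-type mean of the same gene, for the 6 polymerase III genes, with mutant arrays in red to the left of wild-type arrays in blue and a marker shape for each replicate number. Mutant replicate 1 lies 0.58 above the wild-type mean for NRPC1 and 0.34 above it for AT5G49530, while mutant replicates 2 and 3 lie highest for AT5G49530.

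The mutant arrays did not shift all 6 genes in 1 direction. Mutant replicate 1 stood above the wild-type mean for 5 of the 6, all but NRPC2, with a median of 0.27. The mean of mutant replicates 2 and 3 stood above it for 4 of the 6, all but AT2G45100 and AT5G09380. AT2G45100 differed most between the mutant arrays, at 0.45 in replicate 1 and -0.38 for the mean of replicates 2 and 3. The SD on the log2 scale was larger in the mutant for 4 of the 6 genes, where it was so for 55.3% of all probe sets. For 4 of the 6 (NRPC1, NRPC2, AT2G45100 and AT5G09380) the 95% interval lay inside a 2-fold change of intensity + 16 either way. For AT3G09360 and AT5G49530 its upper end passed 2-fold. NRPC1, with an upper end of 0.98, and AT2G45100, with a lower end of -0.96, lay close to that limit. Their standard errors were larger with 1 added (0.28 and 0.39) and with the robust prior and trend (0.32 and 0.42). A 2-fold change is thus not excluded for these genes under every setting.

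The pattern of NRPC1 over the 6 arrays was compared with 13465 single-gene probe sets outside the gene lists used here, by the root mean square difference of log2 values after each gene's own mean was subtracted. AT2G17850 was nearest at 0.03, followed by AT3G15940 at 0.09 and SNF7.1 at 0.10. Their log2 differences between mutant and wild type were 0.35 ± 0.28, 0.40 ± 0.26 and 0.36 ± 0.26 (SE), and their adjusted p-values by limma were 0.611, 0.538 and 0.58. For mutant replicate 1 alone the differences were 0.64, 0.71 and 0.60. Among the polymerase III genes AT5G09380 was the nearest to NRPC1, at 0.27, and AT3G09360 the farthest, at 0.49. With 6 arrays and so many candidates a close match is readily found, so this is a description only.

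Genes of related function were read from 8 lists, chosen for their function but with earlier results of these data known. These held other polymerase III genes, shared subunits, and genes of polymerases I, II, IV and V. The rest were relatives of the TATA-binding protein and TFIIB, transfer RNA processing genes, and RPL5 genes. Of 65 listed genes 26 were measured, 0 were called by limma and 0 had an unadjusted p under 0.05, where 14.0% of all probe sets had. Of the 26, 17 had estimates above 0 and 9 below, with a median of 0.17. The groups did not overlap for 4 of the 26, 3 with the mutant arrays above and 1 with them below. Over all probe sets they did not for 22.1%, 11.2% with the mutant arrays above and 11.0% with them below. For mutant replicate 1 alone the median was 0.03, with 14 above 0 and 12 below. The ribosomal protein genes RPL5A and RPL5B, whose product binds 5S ribosomal RNA, were among those not analysed here, as were both genes of the TATA-binding protein.

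Of 18 other genes of polymerase III initiation, elongation and RNA handling, 6 were measured, with estimates from -0.28 to 0.67. AT5G23710, an RPC6-type subunit, gave 376, 376 and 225 in the mutant arrays and 176, 272 and 166 in the wild-type arrays. The highest wild-type value lay above the lowest mutant value, so the groups overlapped, and the log2 difference was 0.63 ± 0.31 (SE, adjusted p = 0.425 by limma). AT4G39160, listed among TFIIIB components, gave 170, 230 and 318 in the mutant arrays and 108, 204 and 122 in the wild-type arrays, a log2 difference of 0.67 ± 0.33 (SE, adjusted p = 0.426). AT5G13240, of the MAF1 type, which represses polymerase III in yeast and animals, was chosen after its values were seen. It gave 292, 295 and 477 in the mutant arrays and 365, 397 and 526 in the wild-type arrays, a log2 difference of -0.28 ± 0.28 (SE, adjusted p = 0.686). Its groups overlapped as well. From mutant replicate 1 alone the differences were 0.86 for AT5G23710, 0.26 for AT4G39160 and -0.52 for AT5G13240, so that of AT4G39160 was smaller there.

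Subunits shared by several polymerases had 5 of 9 genes measured, 4 with estimates above 0. NRPB12, a small zinc-binding subunit, gave 2423, 3770 and 2973 in the mutant arrays and 2158, 2277 and 2237 in the wild-type arrays. Its groups did not overlap, and the log2 difference was 0.43 ± 0.23 (SE, adjusted p = 0.452 by limma). AT1G61700, an NRPB10-type subunit gene, read 4.70, 10.3 and 2.86 in the mutant arrays and 109, 2.82 and 69.2 in the wild-type arrays. It was dim on 4 of the arrays, and its log2 difference of -1.43 ± 0.71 had an adjusted p of 0.431. On mutant replicate 1 alone NRPB12 stood at 0.12 and AT1G61700 at -1.50.

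The lists for the other enzymes held fewer measured genes and no calls. All 5 listed polymerase I genes were measured, with estimates from -0.20 to 0.33. NRPA1, the largest subunit of polymerase I, gave 410, 460 and 455 in the mutant arrays against 362, 297 and 391 in the wild-type arrays. Its groups did not overlap, and its log2 difference was 0.33 ± 0.20 (SE, adjusted p = 0.505 by limma), close to the 0.34 of NRPC1. AT3G13940, also on the polymerase I list, was chosen after its values were seen. It gave 586, 625 and 610 in the mutant arrays against 672, 720 and 701 in the wild-type arrays. Its groups did not overlap either, with the mutant below. The log2 difference was -0.20 ± 0.17 (SE, adjusted p = 0.65 by limma), and -0.25 in mutant replicate 1 alone. AT1G75670 stood at 0.32 ± 0.26 (adjusted p = 0.632). Of polymerase II subunits 3 of 8 were measured, NRPB9B at 0.40 ± 0.34, NRPB9A at 0.13 ± 0.28 and NRPB7 at 0.04 ± 0.18. NRPD7 and NRPE7, subunits of polymerases IV and V, stood at -0.76 ± 0.40 and -0.14 ± 0.29. The TFIIB relative AT3G57370 (BRP4) was dim, at 5.19 to 35.8 in the mutant and 3.62 to 78.5 in the wild type, with a log2 difference of -0.53 ± 0.65. Mutant replicate 1 alone stood at 0.23 for NRPA1, -0.10 for AT1G75670, -0.04 for NRPB9B, 0.28 for NRPB9A and 0.05 for NRPB7. It stood at -1.03 for NRPD7, 0.03 for NRPE7 and 0.26 for AT3G57370. The estimates of AT1G75670, NRPB9B, NRPE7 and AT3G57370 thus had the opposite sign on that array.

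Of 8 genes that process or export transfer RNA, 4 were measured. PSD, the exportin of transfer RNA, gave 215, 264 and 272 in the mutant arrays against 153, 194 and 189 in the wild-type arrays. All mutant values lay above the wild-type values, with a log2 difference of 0.45 ± 0.20 (SE, adjusted p = 0.391 by limma). TRZ1, a tRNase Z that trims the 3′ end, gave 284, 160 and 189 in the mutant arrays, and 7.67, 228 and 186 in the wild-type arrays. Its log2 difference of 1.07 ± 0.92 (adjusted p = 0.641) had the widest interval among these genes, and wild-type replicate 1 was the array with the low value. Mutant replicate 1 alone gave 0.26 for PSD and 1.51 for TRZ1.

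**Figure D3:**
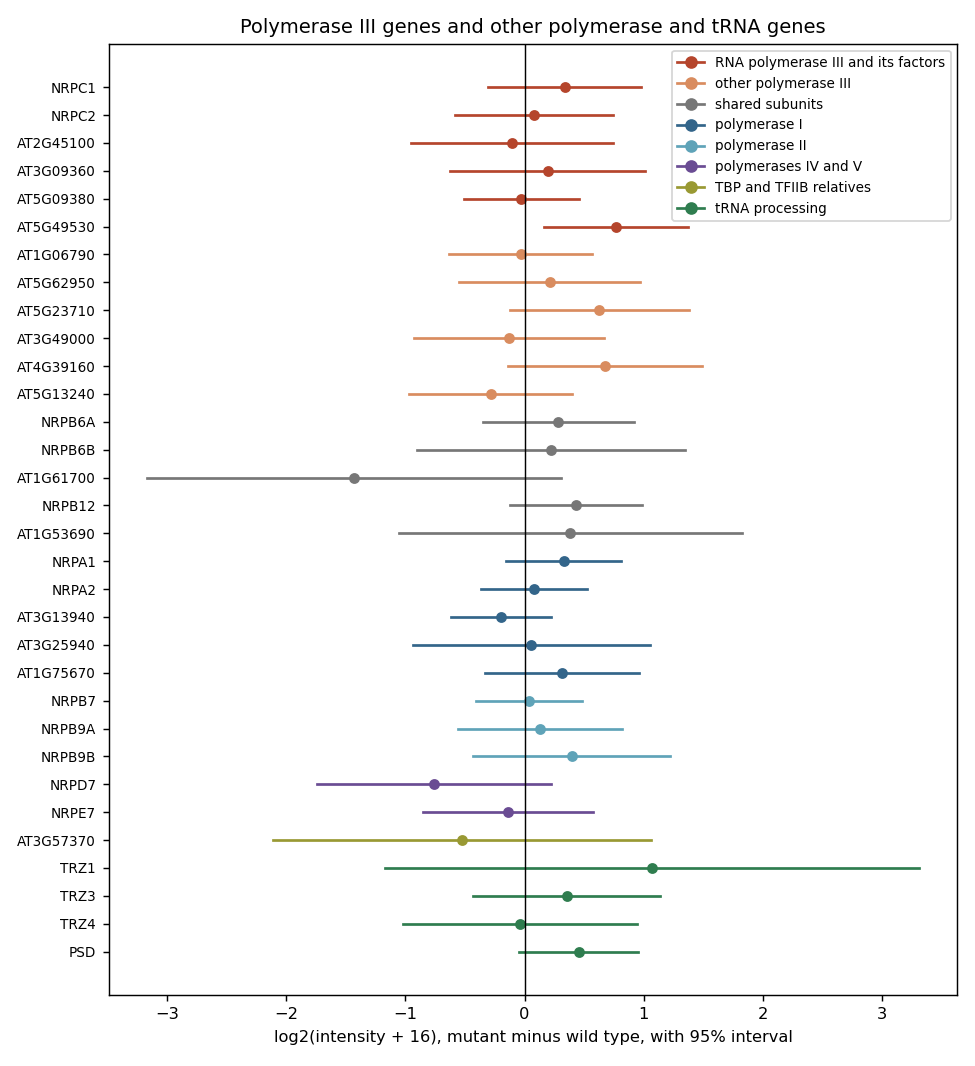
Difference in log2(intensity + 16), mutant minus wild type, as points with 95% intervals from limma, for the 6 polymerase III genes (red, at the top) and 26 measured genes of other polymerase III components, other polymerases and transfer RNA processing (other colours). The interval of AT5G49530 lies wholly above 0, from 0.16 to 1.37, and those of the other genes include 0.

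A product of polymerase III was read by a control probe set for 5S ribosomal RNA, which took no part in the fit. It gave 238, 535 and 352 in mutant replicates 1, 2 and 3, against 99.0, 100.3 and 76.9 in wild-type replicates 1, 2 and 3. All 3 mutant values lay above the wild-type values, and replicate 1, with the low actin ratio, was the lowest of them. The means were 375 ± 150 in the mutant and 92.1 ± 13.2 in the wild type (SD, n = 3 each), a 3.46-fold difference of intensity + 16. An exact permutation test over arrays gave a two-sided p of 0.10, the smallest that 3 against 3 arrays allow. In mutant replicate 1 alone the log2 difference was 1.24, against 1.79 over all arrays. The probe set for 25S ribosomal RNA, a polymerase I product, read 1105, 143 and 121 in the mutant arrays, against 1061, 583 and 764 in the wild-type arrays, and its groups overlapped (exact two-sided permutation p = 0.40). Its log2 difference was -1.46 over all arrays and 0.50 in mutant replicate 1 alone. How ribosomal RNA entered the labelled material, and how far the loss of 5′ signal moved these probe sets, was not tested.

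The genes next to the polymerase III loci were read as well. A neighbour's level does not stand in for that of the locus beside it, and a link between them was not tested. Of 20 protein-coding neighbours in the TAIR10.1 gene order 8 were measured. Estimates were above 0 for 7 of the 8, where 49.5% of all probe sets had such estimates. Limma called 1 of the 8, where it called 0.919% of all probe sets. The groups did not overlap for 2 of the 8 (25%), both with the mutant above, where they did not for 22.1% of all probe sets. AT1G72060, directly beside TFIIIA, gave 647, 891 and 977 in the mutant arrays and 93.6, 65.8 and 122 in the wild-type arrays. Its lowest mutant value was several times its highest wild-type value. The log2 difference was 2.97 ± 0.29 (SE, adjusted p = 0.0233 by limma), and it was already known as 1 of the largest rises when this list was made. It lost the threshold in 7 of 16 alternatives, with adjusted p-values of 0.0871 to 0.263, though its log2 difference stayed between 2.51 and 3.17 in all 16. In mutant replicate 1 alone it was 2.63. AT5G49540, beside AT5G49530, was chosen after its values were seen. It gave 2148, 2444 and 2487 in the mutant arrays and 1731, 1867 and 1942 in the wild-type arrays, without overlap, and its log2 difference of 0.35 ± 0.18 did not pass (adjusted p = 0.45) and was 0.22 in mutant replicate 1 alone.

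**Figure D4:**
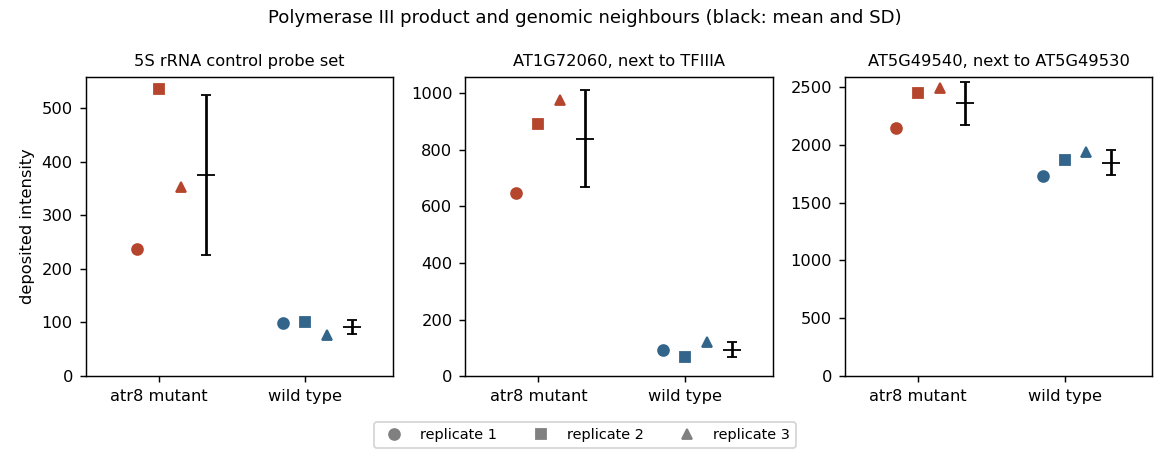
Deposited intensity of the 5S ribosomal RNA control probe set and of the genes AT1G72060 and AT5G49540, which lie beside TFIIIA and AT5G49530, on the 3 atr8 mutant arrays (red) and the 3 wild-type arrays (blue), with mean and SD in black and a marker shape for each replicate number. In all 3 panels the mutant arrays lie above the wild-type arrays, for 5S at 238 to 535 in the mutant and 76.9 to 100.3 in the wild type. AT1G72060 was already known as a large rise and AT5G49540 was chosen after its values were seen, so their shared direction was selected.

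The 6 polymerase III genes were also read under 16 other settings. NRPC1 and AT5G49530 kept estimates above 0 in all 16, from 0.19 to 0.58 for NRPC1 and from 0.34 to 0.98 for AT5G49530. The other 4 genes changed sign in 1 to 3 of the 16. Both ends of the range of AT5G49530 came from the choice of mutant arrays, the lower from mutant replicate 1 alone and the upper from its absence.

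**Figure D5:**
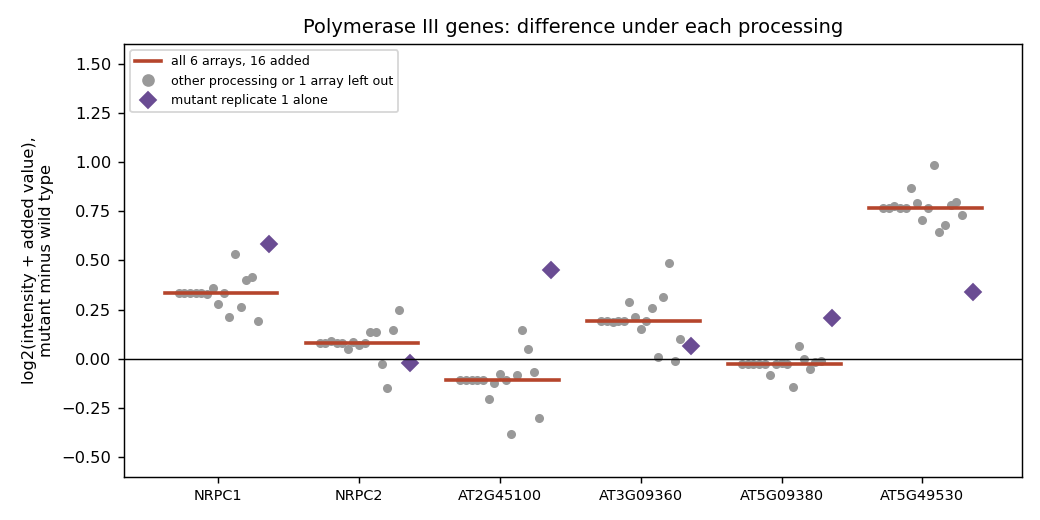
Difference on the log2 scale, mutant minus wild type, of the 6 polymerase III genes with all 6 arrays and 16 added (red line), under other processing or with 1 array left out (grey points), and for mutant replicate 1 alone (purple diamonds). AT5G49530 stays above 0 throughout, from 0.34 to 0.98, and AT2G45100 spreads from -0.38 to 0.45. The groups of AT5G49530 do not overlap, so leaving out arrays could not turn its sign.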

How the data were processed

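The deposited file gave each probe set 1 intensity per array, on a linear scale from 1 to 47944, and per the labels' protocols the RNA was labelled with biotin. The authors deposited intensities whose sorted values were identical in all 6 columns (median 192.9), that is, quantile-normalized ones. Summarization software and background correction: not given in the sources used here. Detection calls were not used, and precision is limited by the number of arrays.

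After 64 of 22810 probe sets were set aside as controls, 22746 were fitted as log2(intensity + 16) with limma 3.58.1 (lmFit, eBayes; R 4.3.3) on genotype. The Benjamini-Hochberg adjustment covered all 22746, and the threshold was 0.05. This scale understates changes of dim genes. The fit was tested on simulated data with known changes. Of the annotated probe sets 13513 named 1 gene and 503 several; another 8730 were not in the annotation and are unnamed here. A locus was found for 13484 of the 13513, by gene ID in RefSeq's gene table (TAIR10.1) or by a symbol that is a locus.

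The polymerase III genes, the other lists and the naming rule were chosen with earlier results of these data known. The rule named all 10 polymerase III loci, up to 4 called genes of each other list or otherwise the 2 with the smallest p, and the 3 probe sets most like NRPC1. The same was meant for TFIIIA, which had no probe set. No probe set was tied to a transfer RNA, and no sequences were used here.

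The labels number both genotypes' replicates from 1 to 3. Deviations of same-numbered arrays from their group means correlated at 0.014, 0.012 and 0.0045. Those of differently numbered arrays correlated lower, at -0.011 to 0.00086. All were near 0, so the numbers were not taken as pairs. Alternatives were the replicate number as a block, 3 further normalizations, removal of the dimmest 30% of probe sets, a robust prior with a trend, array weights, 1 or 64 added in place of 16, each array left out, and mutant replicate 1 alone.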

Additional observations from a re-analysis of the deposited data

Results flagged for a closer look

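The 5S ribosomal RNA control probe set stood outside the comparison of genes and read higher in the mutant than in every wild-type array. Its mean was 375 ± 150 in the mutant and 92.1 ± 13.2 in the wild type (SD, n = 3 each). The exact two-sided permutation p of 0.10 is the smallest these arrays can give. The actin 3′ to 5′ ratio was 2.13, 28.9 and 19.6 in mutant replicates 1, 2 and 3, where the 5S probe set read 238, 535 and 352. The part of lost 5′ signal in it was not tested.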

How the results depend on the processing

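Of the 6 polymerase III genes, limma called 0 in 15 of 16 alternatives and 1, AT5G49530, with a robust prior and a trend (adjusted p = 0.0428), and its adjusted p ran from 0.0428 to 0.76 over the 16. With 1 array left out, NRPC2 ran from -0.15 (without wild-type replicate 1) to 0.25, AT2G45100 from -0.38 to 0.15 (without mutant replicate 3), AT3G09360 from -0.0097 (without wild-type replicate 2) to 0.49, and AT5G09380 from -0.14 to 0.063 (without mutant replicate 2). The sign also turned for NRPC2 without mutant replicate 3 (-0.025) and for AT2G45100 without wild-type replicate 1 (0.05). In mutant replicate 1 alone it turned for NRPC2 (-0.022), AT2G45100 (0.45) and AT5G09380 (0.21). The cause of these changes was not tested. Over the whole array, where 209 were called, limma called 371 probe sets without the dimmest 30%, 1459 with the robust prior and trend (813 higher and 646 lower), 99 with 1 added, 336 with 64 added, 0 with the replicate block and 0 for mutant replicate 1 alone. It called 314 without mutant replicate 1 and 0 without any other single array. Where it called 0, from 2194 to 2769 probe sets had an unadjusted p under 0.05. Leaf markers had 0 calls, but 2 without the dimmest 30%, 4 with the robust prior and trend, 1 with array weights and 2 with 64 added. The single call among neighbours, AT1G72060, was lost with the replicate block (0 calls) and in mutant replicate 1 alone (0). With 1 array left out it was kept without mutant replicate 1 (1 call) and lost without any of the other 5 arrays (0 calls). In mutant replicate 1 alone that array is assumed to vary like the wild type. Each of the 6 genes had 1 probe set, so a mean over probe sets was not run.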
